A study of Homo sapiens with 18 samples.

Results

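The 38 genes described here encode the proteins that copy DNA in S phase, from the factors that mark and license origins to the enzymes that make nucleotides and package the new DNA. They were taken as a listed set with no rule on their values, but the list was chosen with earlier results of these data known. Each gene is represented by the brightest, on average over the panel, of the probe sets annotated to that gene alone. All 38 were measured, out of 19774 genes on the array, and all 38 lay above the background level in every line. The background level was 4.47 log2 units, the 95th percentile of probe sets of genes restricted to other tissues, and 13587 genes exceeded it in at least 1 line. The study concerns molecular subtypes of colorectal cancer in laboratory models, and no subtype was assigned to a line here. Total RNA of 18 established cancer cell lines was labelled with biotin and hybridised, 1 array a line. Per the labels, the 10 lines CAR1, CL40, HT55, HUTU80, LS180, OUMS23, RKO, SW48, SW948 and SW1463 grew in DMEM/F-12, and the 8 lines HCT116, KM12, RCM1, SNUC1, LS513, COLO320HSR, MDST8 and NCIH716 grew in RPMI-1640. Both media held serum, glutamine, penicillin and streptomycin, and the RPMI-1640 medium also held added glucose and sodium pyruvate. No genetic change or drug was given for any line, and all lines were labelled as colorectal cancer. Each line was measured once, so a value of a line has no replicate error, and the spread given below is that among different lines.

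Replication starts at origins bound by the origin recognition complex, where CDC6 and CDT1 load the ring-shaped MCM2 to MCM7 helicase before S phase. CDC45 and the GINS complex then join the ring to form the active helicase, which opens the DNA for primase and the replicative polymerases, while the clamp loader RFC places the PCNA clamp that holds the polymerases on DNA. Many of these genes are transcribed from late G1 under E2F factors, so their RNA is used as a readout of proliferation in colorectal tumours and cultures. In bulk RNA, fewer cycling cells and less of these RNAs per cycling cell cannot be told apart.

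The stretches below show the promoters of the genes that followed the rest of the set most closely (RFC4 and MCM10) and least closely (RFC3, DTYMK and RRM2). MCM6 was added after the motifs were counted, because its promoter held the most E2F-type matches. Each stretch is the 160 bases just before the RefSeq gene start in GRCh38.p14, 5′ to 3′ on the strand of the gene, with matches in capitals. The motifs searched on both strands were the E2F-type words TTTCCCGC, TTTCGCGC, TTTGGCGC and TTTGCCGC, and the NF-Y-type word CCAAT. RFC4 lies at chr3:186806483-186806642, minus strand, MCM10 at chr10:13161398-13161557, plus strand, RFC3 at chr13:33817989-33818148, plus strand, DTYMK at chr2:241686816-241686975, minus strand, RRM2 at chr2:10122579-10122738, plus strand and MCM6 at chr2:135876444-135876603, minus strand.
RFC4: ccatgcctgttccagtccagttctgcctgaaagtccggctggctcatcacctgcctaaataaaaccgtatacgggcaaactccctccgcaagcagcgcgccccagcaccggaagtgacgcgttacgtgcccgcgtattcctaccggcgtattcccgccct
MCM10: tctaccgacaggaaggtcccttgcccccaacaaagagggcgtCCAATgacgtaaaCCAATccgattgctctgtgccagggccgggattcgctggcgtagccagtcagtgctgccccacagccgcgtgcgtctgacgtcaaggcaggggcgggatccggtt
RFC3: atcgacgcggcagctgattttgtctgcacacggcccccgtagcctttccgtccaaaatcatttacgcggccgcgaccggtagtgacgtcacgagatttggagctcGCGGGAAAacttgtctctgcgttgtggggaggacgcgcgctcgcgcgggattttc
DTYMK: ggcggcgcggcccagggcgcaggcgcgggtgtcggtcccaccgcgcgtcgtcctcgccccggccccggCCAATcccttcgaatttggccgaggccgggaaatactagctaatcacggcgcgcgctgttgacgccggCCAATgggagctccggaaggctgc
RRM2: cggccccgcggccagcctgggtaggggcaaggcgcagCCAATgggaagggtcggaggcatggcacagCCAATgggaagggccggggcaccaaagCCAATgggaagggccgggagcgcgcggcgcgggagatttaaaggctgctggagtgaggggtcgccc
MCM6: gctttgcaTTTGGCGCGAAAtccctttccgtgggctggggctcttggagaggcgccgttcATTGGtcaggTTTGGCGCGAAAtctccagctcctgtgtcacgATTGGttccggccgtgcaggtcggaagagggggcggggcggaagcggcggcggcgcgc
RFC4 held no match in this stretch, and MCM10 held 2 CCAAT words. RFC3 held 1 E2F-type word on the opposite strand, GCGGGAAA, whose leftmost base is at position -55 from the start. DTYMK held 2 CCAAT words, and RRM2 held 3. MCM6 held 4 E2F-type matches in 2 overlapping pairs, each a TTTGGCGC that shares its last 4 letters with a GCGCGAAA on the other strand, plus 2 CCAAT words read as ATTGG.

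Promoters of 35 of the 38 genes were matched in the RefSeq table, and those of MCM4, MCM5 and GINS4 were not shown or searched. Over the full window from 250 bases before to 50 bases after the start, 17 of the 35 promoters (48.6%) held an E2F-type word. The same words were in 3.33% of 27305 promoters of all genes and in 6.27% of 6249 promoters of genes above background in every line. The CCAAT word was in 19 of the 35 (54.3%), against 35.7% of all promoters and 39.2% of the promoters of genes above background in every line. Promoters with an E2F-type word included those of the licensing factors CDC6 and CDT1, the helicase subunits MCM2, MCM3, MCM6 and MCM7, the clamp PCNA, the ligase LIG1 and the thymidylate synthase TYMS. A match is a run of letters and not a shown binding site, and RFC4 and MCM10, the members closest to the rest, held no E2F-type word.

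The levels of the 38 genes varied together across the 18 lines. The mean correlation over all 703 pairs of members was 0.41 (jackknife SE over lines 0.07), and it lay between 0.37 and 0.43 when any single line was left out. The mean pairwise correlation was 0.02 among all genes above background in every line. Of the member pairs, 657 (93.5%) had a correlation above 0 and 287 (40.8%) reached 0.5. These correlations are descriptions over 18 lines, and all values of a line come from its 1 array. A single principal component held 51.0% of the members' variance and the next held 11.2%.

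The amplitude of this shared variation was modest. The median SD of a member over the lines was 0.52 log2 units, against 0.50 for all genes above background in every line, and 20 of the 38 exceeded the latter. SDs ran from 0.29 for PCNA, the sliding clamp, to 0.97 for MCM10, which helps to switch on the loaded helicase. The median range from the lowest to the highest line was 1.80 log2 units, a 3.47-fold difference. Of the members, 22 had several probe sets, and the correlation between the 2 brightest had a median of 0.96 and was at least 0.9 for 15. The lowest was 0.45, for the GINS subunit GINS2, and 16 members had 1 probe set and no such check.

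**Figure D1:**
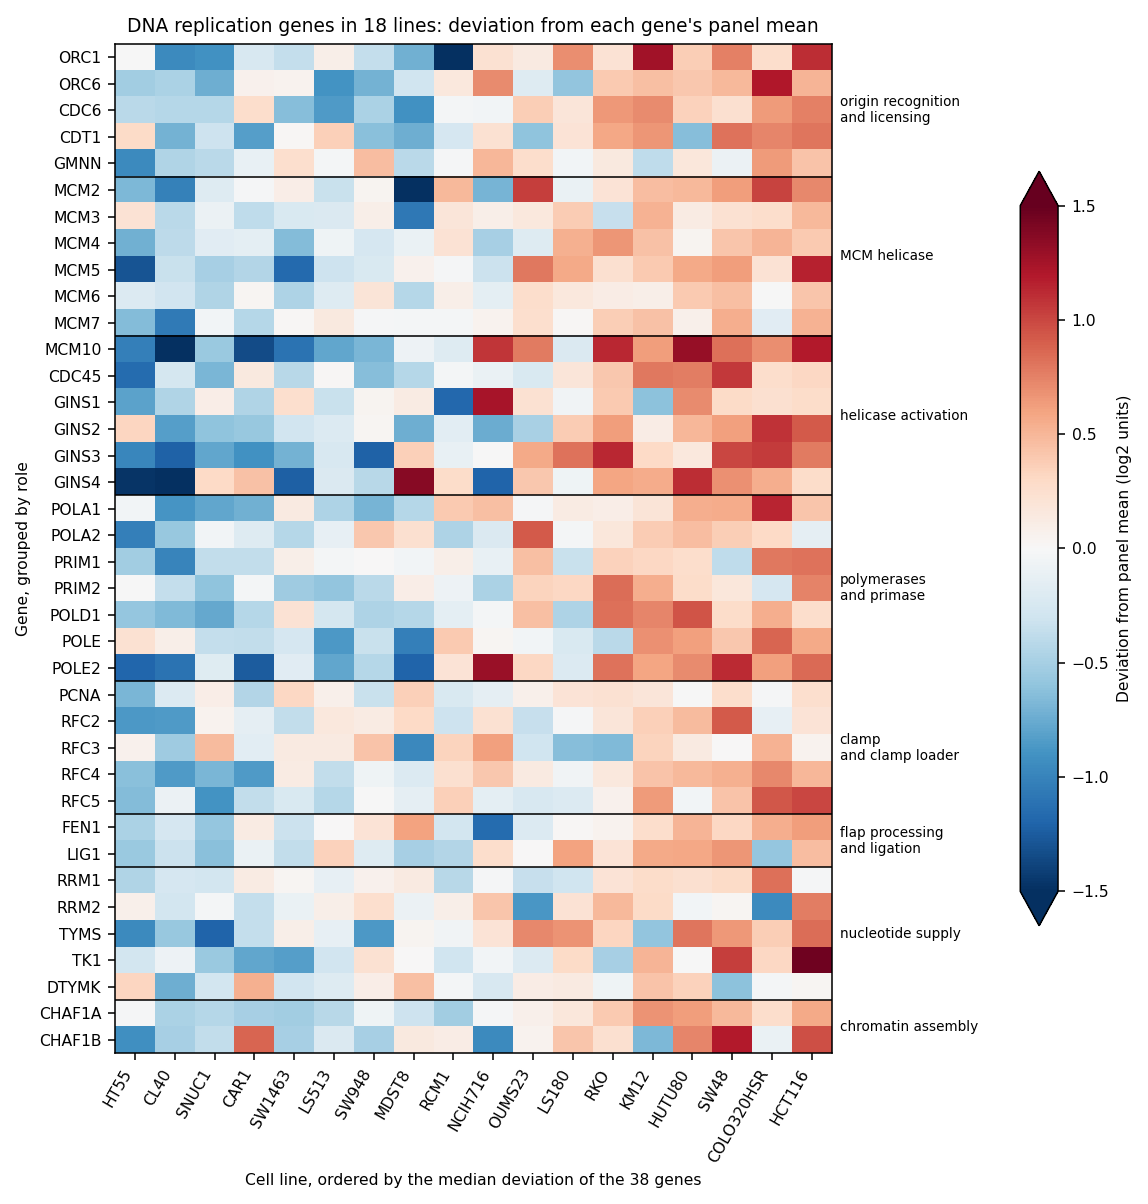
Deviation of each of the 38 genes (rows, grouped by role) from its mean over the panel, in log2 units, for each of 18 cell lines (columns, ordered by the median deviation of the 38 genes). Red is above and blue below the panel mean, and the scale is cut at 1.5 log2 units; the columns pass from mostly blue at HT55 (median -0.57) to mostly red at HCT116 (median 0.54), with dark single cells for MCM2 in MDST8 and ORC1 in RCM1.

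The closeness of a member to the set was measured as its correlation with the median deviation of the other 37 members, over 18 lines. The median over members was 0.67, against 0.06 for the 13549 genes outside the list, of which 12.5% reached 0.5. Of the members, 32 reached 0.5 and 3 lay under 0.2. RFC4 (0.88), MCM10 (0.86), CHAF1A (0.83), GINS3 (0.83) and MCM5 (0.83) were closest. RFC3 (0.07), DTYMK (0.09), RRM2 (0.09) and GINS1 (0.37) were farthest. Without the 2 lines farthest from the median, RFC4 gave 0.87, MCM10 0.84, CHAF1A 0.92 and GINS3 0.80, while RFC3 gave 0.09, DTYMK 0.20, RRM2 0.40 and GINS1 0.34. By role, the mean correlation among members was 0.55 for the MCM helicase, 0.49 for polymerases and primase, 0.48 for helicase activation and 0.46 for licensing. It was lower for chromatin assembly (0.33, a single pair), the clamp and its loader (0.32), flap processing and ligation (0.25, a single pair) and nucleotide supply (0.11).

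**Figure D2:**
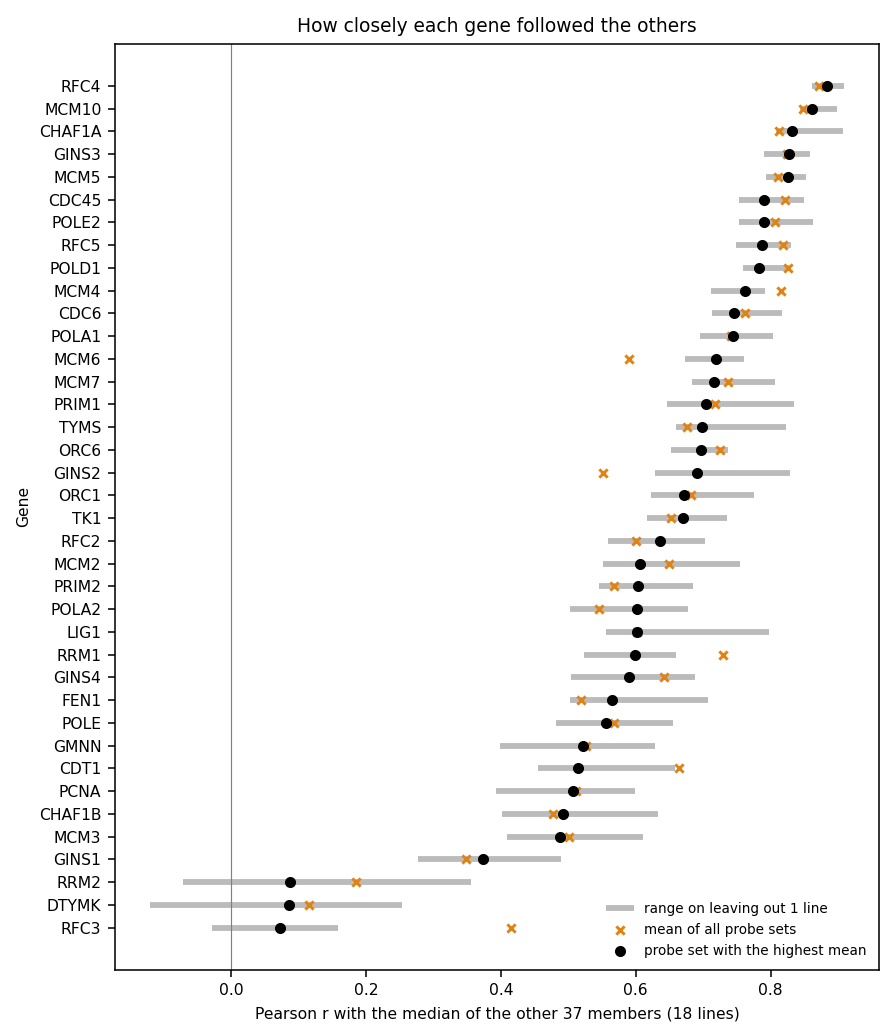
Pearson correlation of each gene (vertical axis) with the median deviation of the other 37 members over 18 lines (horizontal axis, no unit). Black points use the probe set with the highest mean, crosses the mean of all probe sets, and grey bars the range on leaving out 1 line; RFC4 is highest at 0.88, and RFC3, DTYMK and RRM2 lie under 0.1, of which RFC3 moves to 0.42 with the mean of its probe sets.

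The licensing genes followed the set with differences among them. ORC1, the largest subunit of the origin recognition complex, read 4.99 in RCM1, 5.60 in CL40, 5.66 in SNUC1, 5.84 in MDST8, 6.20 in SW948, 6.20 in SW1463, 6.32 in CAR1, 6.56 in HT55, 6.65 in LS513, 6.70 in OUMS23, 6.77 in RKO, 6.79 in NCIH716, 6.82 in COLO320HSR, 6.93 in HUTU80, 7.26 in LS180, 7.31 in SW48, 7.66 in HCT116 and 7.82 in KM12. ORC1 was thus lowest in RCM1, a line in the middle of the panel on the other members, and highest in KM12 and HCT116, a 7.07-fold range. ORC6, another subunit of the complex, ran from 7.14 in LS513 through a median of 8.08 to 9.23 in COLO320HSR. CDC6, which recruits the helicase to the origin, ran from 8.05 in MDST8 through 9.03 to 9.72 in HCT116. CDT1, its partner in loading, ran from 8.48 in CAR1 through 9.42 to 10.12 in SW48. GMNN, or geminin, the inhibitor that binds CDT1, ran from 9.03 in HT55 through 9.97 to 10.63 in COLO320HSR. The loader and its inhibitor hardly moved together: the correlation of CDT1 with GMNN was 0.16, against 0.45 for CDT1 with CDC6 and 0.63 for ORC1 with CDC6.

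The MCM helicase genes formed the most coherent role. MCM2 read 7.91 in MDST8, 9.03 in CL40, 9.35 in NCIH716, 9.38 in HT55, 9.71 in LS513, 9.86 in SNUC1, 9.95 in LS180, 10.03 in CAR1, 10.09 in SW948, 10.16 in SW1463, 10.26 in RKO, 10.52 in KM12, 10.54 in RCM1, 10.54 in HUTU80, 10.68 in SW48, 10.77 in HCT116, 11.07 in COLO320HSR and 11.09 in OUMS23. All lines but MDST8 lay between 9.03 and 11.09, and MDST8 stood apart at 7.91. MCM3 was also lowest in MDST8, at 8.90, with a median of 10.08 and a highest value of 10.50 in KM12. MCM4 ran from 9.10 in HT55 through 9.74 to 10.48 in RKO, and MCM5 from 7.39 in HT55 through 8.71 to 9.84 in HCT116. On the probe sets used, MCM6 had the narrowest range of the 38 genes, from 9.99 in SW1463 through 10.51 to 10.91 in SW48, a 1.89-fold difference. Its 2 brightest probe sets gave a correlation of 0.70 with each other. The SD between them was 0.46, above the SD of 0.29 of the one used, so the narrow range may rest on the probe set. MCM7 ran from 9.36 in CL40 through 10.44 to 10.97 in SW48. These 6 proteins form 1 ring in equal numbers, yet the spread of their RNAs differed on the probe sets used. The range of MCM2 was 3.18 log2 units and that of MCM6 was 0.92. Within the ring, correlations ran from 0.32 for MCM3 with MCM4, 0.35 for MCM3 with MCM7 and 0.37 for MCM3 with MCM5 up to 0.76 for MCM4 with MCM5 and 0.77 for MCM5 with MCM6. For MCM6 the correlation with the set was 0.72, but 0.59 with the mean of its probe sets and 0.52 with the probe set of largest SD.

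The widest range of the set was that of GINS4, a gene of helicase activation, and MCM10 of the same role had the largest SD. MCM10 read 6.45 in CL40, 6.75 in CAR1, 6.98 in SW1463, 7.06 in HT55, 7.31 in LS513, 7.4 in SW948, 7.53 in SNUC1, 7.87 in LS180, 7.90 in RCM1, 8.01 in MDST8, 8.71 in KM12, 8.78 in COLO320HSR, 8.87 in OUMS23, 8.91 in SW48, 9.16 in NCIH716, 9.22 in RKO, 9.28 in HCT116 and 9.39 in HUTU80. The values of MCM10 left a gap between MDST8 at 8.01 and KM12 at 8.71, and CL40, CAR1, SW1463 and HT55 were lowest. GINS4, a subunit of the 4-protein GINS complex, read 4.83 in CL40, 5.31 in HT55, 5.56 in SW1463, 5.58 in NCIH716, 6.36 in SW948, 6.56 in LS513, 6.72 in LS180, 7.05 in HCT116, 7.05 in RCM1, 7.08 in SNUC1, 7.19 in OUMS23, 7.21 in CAR1, 7.33 in COLO320HSR, 7.34 in KM12, 7.37 in RKO, 7.47 in SW48, 7.88 in HUTU80 and 8.15 in MDST8. The lowest lines, from CL40 at 4.83 to NCIH716 at 5.58, lay near the background level of 4.47, so the 9.97-fold range of GINS4 rests on dim values at its lower end. GINS3 read 6.31 in SW948, 6.31 in CL40, 6.55 in HT55, 6.62 in CAR1, 6.74 in SNUC1, 6.81 in SW1463, 7.28 in LS513, 7.4 in RCM1, 7.52 in NCIH716, 7.67 in HUTU80, 7.82 in KM12, 7.88 in MDST8, 8.08 in OUMS23, 8.30 in HCT116, 8.33 in LS180, 8.52 in SW48, 8.57 in COLO320HSR and 8.65 in RKO. GINS3 was at or under 6.81 in CL40, HT55, CAR1, SNUC1, SW1463 and SW948, and highest in RKO, COLO320HSR and SW48.

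GINS1 was the member of this role that followed the set least. GINS1 read 8.63 in RCM1, 9.01 in HT55, 9.20 in KM12, 9.36 in CL40, 9.36 in CAR1, 9.48 in LS513, 9.76 in LS180, 9.85 in SW948, 9.92 in SNUC1, 9.93 in MDST8, 10.04 in OUMS23, 10.05 in COLO320HSR, 10.06 in SW1463, 10.09 in HCT116, 10.09 in SW48, 10.20 in RKO, 10.52 in HUTU80 and 11.05 in NCIH716. RCM1 and NCIH716, both in the middle of the panel by the other members, were the lowest and the highest line for GINS1. GINS2 ran from 8.65 in CL40 through 9.41 to 10.56 in COLO320HSR, and CDC45, which joins GINS on the ring, from 7.47 in HT55 through 8.61 to 9.68 in SW48. The GINS proteins work in a fixed complex, but their RNAs were not tightly matched over the lines. The correlation of GINS3 with GINS4 was 0.62 and of GINS2 with GINS3 0.60, while GINS1 gave 0.37 with GINS3, 0.13 with GINS4 and 0.10 with GINS2. GINS1 had 1 probe set, and the 2 brightest gave 0.45 with each other for GINS2, 0.81 for GINS4 and 0.98 for GINS3. The low values with GINS2 and GINS4 may thus rest in part on the probe set.

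Among the polymerase genes, POLE2, a smaller subunit of polymerase epsilon, varied most. POLE2 read 7.23 in CAR1, 7.28 in MDST8, 7.29 in HT55, 7.38 in CL40, 7.71 in LS513, 8.06 in SW948, 8.28 in LS180, 8.30 in SNUC1, 8.32 in SW1463, 8.69 in RCM1, 8.80 in OUMS23, 9.08 in KM12, 9.10 in COLO320HSR, 9.19 in HUTU80, 9.30 in RKO, 9.33 in HCT116, 9.60 in SW48 and 9.78 in NCIH716. CAR1, MDST8, HT55 and CL40 formed the low end, between 7.23 and 7.38, and NCIH716 was highest. POLE, the catalytic subunit of the same enzyme, ran from 5.03 in MDST8 through 6.05 to 6.93 in COLO320HSR, and its correlation with POLE2 was 0.58. POLD1, the catalytic subunit of polymerase delta, ran from 6.36 in SNUC1 through 7.04 to 8.07 in HUTU80. POLA1, the catalytic subunit of polymerase alpha, ran from 6.78 in CL40 through 7.77 to 8.80 in COLO320HSR. Its regulatory partner POLA2 ran from 6.94 in HT55 through 7.93 to 8.89 in OUMS23, and the pair gave a correlation of 0.20. The 2 brightest probe sets of POLA2 gave only 0.47 with each other, so the low value of the pair may rest on the probe set. The highest correlation of all member pairs was that of POLA1 with the clamp loader gene RFC4, 0.89. The primase genes PRIM1 (8.19 in CL40 to 9.996 in HCT116, median 9.17) and PRIM2 (6.85 in SNUC1 to 8.29 in RKO, median 7.44) gave a correlation of 0.43.

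The clamp loader held both the member closest to the set and the member farthest from it. RFC4 read 9.47 in CL40, 9.47 in CAR1, 9.64 in SNUC1, 9.70 in HT55, 9.95 in LS513, 10.12 in MDST8, 10.25 in SW948, 10.27 in LS180, 10.44 in SW1463, 10.46 in OUMS23, 10.48 in RKO, 10.57 in RCM1, 10.72 in NCIH716, 10.75 in KM12, 10.80 in HUTU80, 10.82 in HCT116, 10.85 in SW48 and 11.04 in COLO320HSR. RFC4 was low in CL40, CAR1, SNUC1 and HT55, the 4 lowest lines of the set, and highest in COLO320HSR, SW48 and HCT116, the 3 highest lines. RFC3, which binds in the same loader ring, read 9.19 in MDST8, 9.51 in RKO, 9.53 in LS180, 9.63 in CL40, 9.87 in OUMS23, 10.01 in CAR1, 10.17 in SW48, 10.22 in HCT116, 10.23 in HT55, 10.31 in SW1463, 10.31 in LS513, 10.31 in HUTU80, 10.50 in KM12, 10.51 in RCM1, 10.60 in SW948, 10.64 in SNUC1, 10.69 in COLO320HSR and 10.79 in NCIH716. RFC3 was low in MDST8, RKO and LS180 and as high in SNUC1 as in COLO320HSR, at 10.64 and 10.69. Its correlation with the set was 0.07 (jackknife SE 0.20), with RFC4 0.31 and with PCNA -0.30. The correlation of RFC3 with the set was 0.42 with the mean of its 3 probe sets and 0.50 with the probe set of largest SD, although its 2 brightest probe sets gave 0.98 with each other. RFC2 ran from 8.16 in HT55 through 9.11 to 9.94 in SW48, and RFC5 from 8.18 in SNUC1 through 8.97 to 10.08 in HCT116. PCNA had the smallest SD of the set, from 10.69 in HT55 through 11.45 to 11.73 in MDST8.

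FEN1 and LIG1 finish the lagging strand. FEN1, the nuclease that trims flaps, ran from 9.21 in NCIH716 through 10.40 to 10.99 in HCT116. LIG1, the ligase that seals nicks, ran from 6.59 in SNUC1 through 7.18 to 7.89 in SW48. Their correlation with each other was 0.25, while each followed the set, FEN1 at 0.56 and LIG1 at 0.60. The correlation of FEN1 with the set was 0.71 without NCIH716, its lowest line. That of LIG1 was 0.60 in all lines and 0.80 without COLO320HSR, where LIG1 deviated by -0.58 from its mean.

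Nucleotide supply was the least coherent role. RRM2, the small subunit of ribonucleotide reductase, read 10.16 in COLO320HSR, 10.25 in OUMS23, 10.77 in CAR1, 10.85 in CL40, 11.02 in SW1463, 11.04 in MDST8, 11.09 in HUTU80, 11.10 in SNUC1, 11.16 in SW48, 11.20 in HT55, 11.21 in LS513, 11.21 in RCM1, 11.34 in LS180, 11.38 in SW948, 11.41 in KM12, 11.54 in NCIH716, 11.61 in RKO and 11.89 in HCT116. COLO320HSR and OUMS23 were lowest for RRM2, with all other lines at 10.77 or more, although COLO320HSR was among the highest lines on the set. The correlation of RRM2 with the set was 0.09 (jackknife SE 0.33), and 0.36 without COLO320HSR. RRM1, the large subunit that RRM2 pairs with, ran from 9.99 in HT55 through 10.45 to 11.28 in COLO320HSR, and the correlation between the subunits was -0.19. DTYMK, which turns thymidine monophosphate into the diphosphate, read 9.15 in CL40, 9.27 in SW48, 9.61 in SW1463, 9.61 in SNUC1, 9.65 in NCIH716, 9.70 in LS513, 9.83 in RKO, 9.86 in COLO320HSR, 9.86 in RCM1, 9.92 in HCT116, 9.99 in SW948, 10 in OUMS23, 10.02 in LS180, 10.21 in HT55, 10.24 in HUTU80, 10.32 in KM12, 10.34 in MDST8 and 10.42 in CAR1. CL40 and SW48, a low and a high line on the set, were the 2 lowest for DTYMK, and its correlation with the set was 0.09 (jackknife SE 0.32). TYMS, thymidylate synthase and the target of fluorouracil, ran from 9.74 in SNUC1 through 11.00 to 11.78 in HCT116. TK1, the thymidine kinase of the salvage route, ran from 9.23 in SW1463 through 9.99 to 11.51 in HCT116. TYMS and TK1 followed the set, at 0.70 and 0.67.

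CHAF1A and CHAF1B encode subunits of the CAF-1 complex, which places histones on new DNA. CHAF1A read 8.28 in RCM1, 8.28 in SW1463, 8.30 in CAR1, 8.33 in CL40, 8.36 in SNUC1, 8.38 in LS513, 8.48 in MDST8, 8.73 in SW948, 8.78 in HT55, 8.78 in NCIH716, 8.88 in OUMS23, 8.97 in LS180, 9.06 in COLO320HSR, 9.18 in RKO, 9.28 in SW48, 9.36 in HCT116, 9.43 in HUTU80 and 9.47 in KM12. The lines from RCM1 to MDST8 lay between 8.28 and 8.48, and KM12, HUTU80 and HCT116 were highest. CHAF1B ran from 5.77 in NCIH716 through 6.71 to 7.92 in SW48. The correlation of CHAF1A with the set was 0.83 and that of CHAF1B was 0.49, and between the subunits it was 0.33.

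Each line was then placed by the median of its 38 deviations from the panel means, called its position. It was lowest in HT55 (-0.57), CL40 (-0.49), SNUC1 (-0.41), CAR1 (-0.36), SW1463 (-0.27) and LS513 (-0.21). SW948 (-0.13), MDST8 (-0.11), RCM1 (-0.03), NCIH716 (-0.02), OUMS23 (0.12) and LS180 (0.13) were in the middle. RKO (0.24), KM12 (0.43), HUTU80 (0.43), SW48 (0.48), COLO320HSR (0.52) and HCT116 (0.54) were highest. HUTU80 is known as a line from the duodenum. On the linear scale the ends stood at 0.673 and 1.46 times the panel mean, and the median over all 13587 genes moved only between -0.12 and 0.02. With 1 array a line these positions carry no error, and neighbours in this order are not told apart. The 6 lines in the middle moved by over 1.5 times under at least 1 alternative (MDST8 to -0.30, SW948 to -0.29 and LS180 to 0.01), and NCIH716 changed sign, to 0.02.

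**Figure D3:**
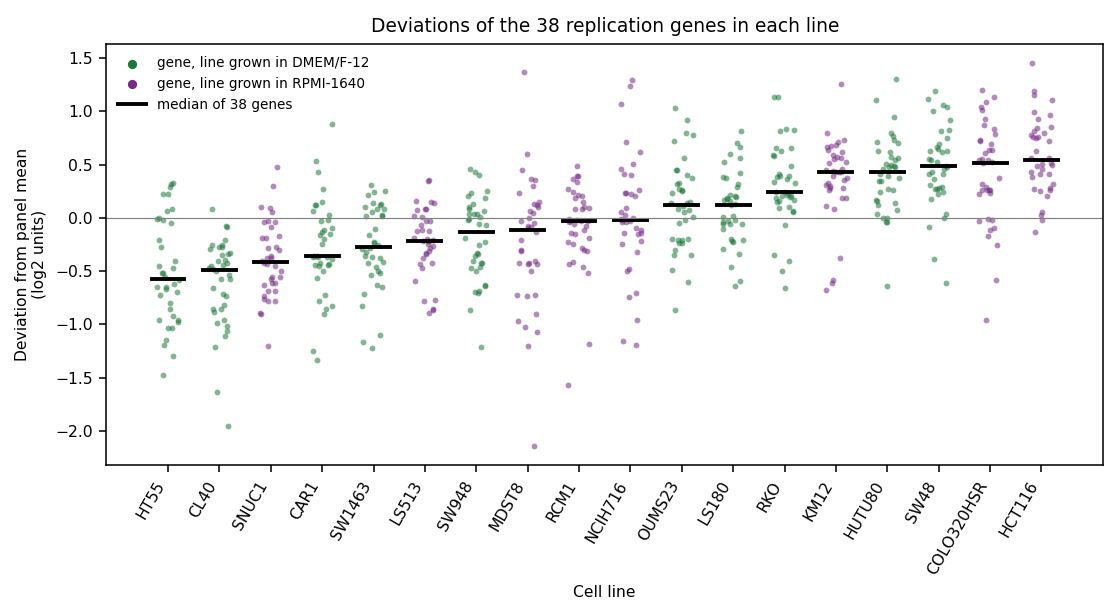
Deviation of each of the 38 genes from its panel mean in log2 units (vertical axis) in each line (horizontal axis, ordered by the median). Points are genes, coloured by the medium of the line, and black bars are medians over 38 genes; the bars run from -0.57 in HT55 to 0.54 in HCT116, and single genes stand apart in MDST8, RCM1 and CL40.

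At the ends of the order most members lay on the same side of their means as the line's position. The position is the median of these same deviations, so such counts follow from it in part and are descriptions only. In HCT116 36 of 38 genes were above their mean, in COLO320HSR 29, in SW48 35, in HUTU80 33, in KM12 34 and in RKO 33. In CL40 only POLE was above its mean, by 0.08, and in SNUC1 5 genes and in HT55 7 were above. Shifts of 1 log2 unit or more were few among members. Over all lines, 24 of 684 member and line pairs (3.51%) were at least 1 above, against 9.32% over all 13587 genes, and 27 (3.95%) were at least 1 below, against 8.41%. Those 13587 genes, also used for the shares in single lines below, include genes under background in some lines, unlike the members. Their median SD was 0.61, against 0.52 for the members and 0.50 for genes above background in every line, so the comparison is between unlike sets.

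In HT55, 6 of 38 genes (15.8%) were at least 1 log2 unit below their mean, against 8.6% of all genes, led by GINS4 (-1.47), MCM5 (-1.29), POLE2 (-1.19) and CDC45 (-1.15). In CL40 6 of 38 (15.8%) were that low, against 7.12%, led by GINS4 (-1.95) and MCM10 (-1.63), and in SNUC1 only TYMS (-1.20), or 2.63%, against 7.33%. In SW48 5 of 38 genes (13.2%) were at least 1 above, against 7.75%, led by CHAF1B (1.19). In COLO320HSR 5 of 38 (13.2%) were that high, against 10.5%, led by ORC6 (1.20) and POLA1 (1.14), and in HCT116 4 of 38 (10.5%), against 7.82%, led by TK1 (1.45). Large shifts were thus few in number, and most of the members in these lines lay less than 1 log2 unit from their means. HCT116 held the highest value of 8 genes, and SW48 and COLO320HSR of 7 each. HT55 and CL40 held the lowest value of 8 genes each.

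The roles did not shift equally within a line. In HT55 the median deviation was -1.0 for helicase activation and -0.66 for the MCM helicase, but -0.27 for nucleotide supply, and GINS2 (0.33), DTYMK (0.32) and CDT1 (0.29) were above their means. In MDST8 licensing stood at -0.72 and polymerases and primase at -0.42, while helicase activation stood at 0.02. Within that line MCM2 (-2.14), POLE2 (-1.20), MCM3 (-1.07) and POLE (-1.02) were low, and GINS4 (1.37) and FEN1 (0.60) were high. In NCIH716 POLE2 (1.29), GINS1 (1.24) and MCM10 (1.07) were high while GINS4 (-1.20) and FEN1 (-1.16) were low, and its median was near 0. In COLO320HSR clamp and loader genes stood at 0.53 and polymerases at 0.61, with RRM2 (-0.96) and LIG1 (-0.58) low.

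A member was called out of step in a line when its deviation differed by 1.5 log2 units or more from the median deviation of the other 37 members there. This held for 3 of 684 pairs (0.439%), against 3.22% of pairs for the genes outside the list that were above background in every line. The outside genes were also set against the median deviation of the members, a set to which they do not belong, so the shares are not like for like. MCM2 in MDST8 read 7.91 against a panel mean of 10.05, a difference from the other members of -2.05. ORC1 in RCM1 read 4.99 against 6.56, a difference of -1.54. GINS4 in MDST8 read 8.15 against 6.78, a difference of 1.501, barely past the limit. Just short of the limit were RRM2 in COLO320HSR (-1.48), GINS4 in CL40 (-1.47) and POLE2 in NCIH716 (1.31).

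**Figure D4:**
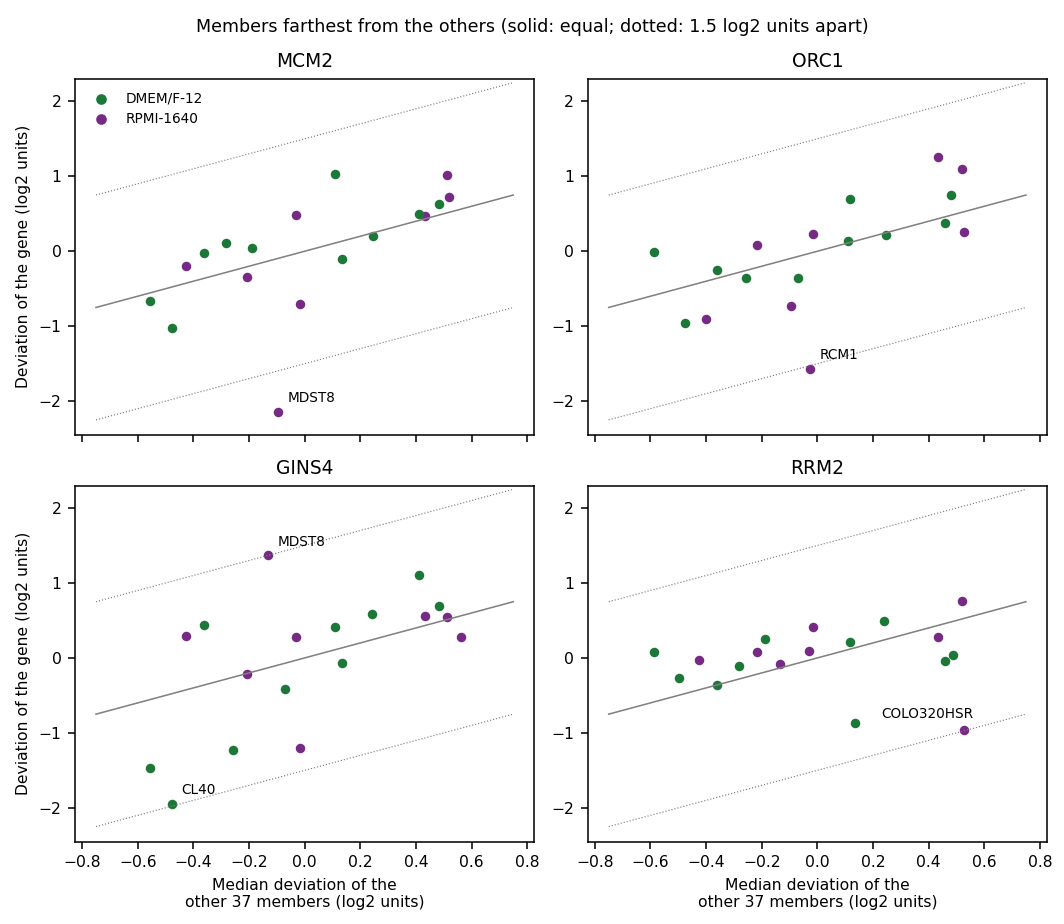
Deviation of MCM2, ORC1, GINS4 and RRM2 from their panel means (vertical axes) against the median deviation of the other 37 members (horizontal axes), both in log2 units. Points are the 18 lines coloured by medium, the solid line marks equality and dotted lines mark 1.5 log2 units from it; MCM2 in MDST8 lies at a difference of -2.05, and RRM2 in COLO320HSR and GINS4 in CL40 lie just within the dotted lines.

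How far these pairs rest on a single probe set differed. MCM2 and ORC1 each had 1 probe set, so their values had no second reading on the array. MCM2 in MDST8 kept its call under all 21 alternatives, and ORC1 in RCM1 under 19, with -1.49 when KM12 was left out. None of these alternatives could read either gene on a second probe set, and most only left out 1 other line. GINS4 in MDST8 was 8.15 on its brightest probe set and 5.38 on another (deviations 1.37 and 1.09), while the remaining 2 probe sets of GINS4 were near or under background. With the mean of all its probe sets the difference was 0.61, and the call was lost under 10 of 21 alternatives. For RRM2 in COLO320HSR the other probe set deviated by -0.49, against -0.96 for the brightest.

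Neighbouring genes on the chromosome were read in the same lines, 5 on each side among the protein-coding genes above background in every line, in the RefSeq order of GRCh38.p14. Around MCM2 on chromosome 3 their median deviation in MDST8 was -0.19, with 7 of 10 below their means and none by 1 log2 unit. Around ORC1 on chromosome 1 it was -0.33 in RCM1, with 8 of 10 below and 1 by at least 1. Around GINS4 it was 0.53 in MDST8, where 9 of 10 were above their means and 2 by at least 1, and -0.70 in NCIH716, where GINS4 was low and 9 of 10 were below. Around GINS1 on chromosome 20 it was 0.52 in NCIH716, with 8 of 10 above and 4 by at least 1. Around POLE2 on chromosome 14 it was 0.49 in NCIH716, with 9 of 10 above and 1 by at least 1, and around GINS4 in CL40 it was -0.06, with 7 of 10 below. Over all genes, 13.1% were at least 1 above their mean in MDST8 and 11.0% in NCIH716, so a count such as 2 of 10 is near the general share. Around GINS1 in NCIH716, 4 of 10 is above the 11.0% of all genes there. These shares are over 13587 genes, some of them under background in some lines, unlike the neighbours. Most neighbours lay on the side of the gene around each of these pairs, but the median over all genes was itself below 0 in these lines. Around GINS4 in CL40 the median of the neighbours (-0.06) was not below that of all genes. The median deviation of all genes was -0.05 in MDST8, -0.04 in RCM1, -0.09 in NCIH716 and -0.12 in CL40. The part of neighbouring genes in these values was not tested.

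Other replication genes were read from a separate list of 43, of which 42 were measured and 40 were above background in every line. Of the 42, 36 had a correlation above 0 with the median of the members, 19 reached 0.5, and 1 was at or under -0.5. The median was 0.49. RFC1, the large subunit of the clamp loader (0.85), NASP, a histone chaperone (0.85), MCMBP, which binds free MCM proteins (0.81), RPA2, a subunit of the single-strand binding protein (0.81), and DNMT1, which copies DNA methylation (0.80), were among the closest. The origin recognition gene ORC4 gave -0.06 and varied little, from 8.79 in LS513 to 9.71 in SW948.

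Of these genes, POLD4 ran the other way. POLD4, the smallest subunit of polymerase delta, gave -0.83 and -0.83 without the 2 farthest lines. It read 8.07 in SW948, 7.88 in SNUC1, 7.87 in CL40 and 7.43 in HT55, but 5.76 in HCT116, 5.51 in SW48, 5.38 in COLO320HSR and 5.27 in HUTU80. These high-position lines were the lowest for POLD4, while KM12, another high line, read 6.81, and the catalytic subunit POLD1 gave 0.78 with the set. POLE4, a small subunit of polymerase epsilon, gave -0.41 and ran from 7.04 in LS180 through 8.99 to 10.12 in NCIH716. Other genes of the list varied widely with a weaker relation to the set: SAMHD1, which breaks down deoxynucleotides (5.96 in OUMS23 through 7.89 to 9.0 in SNUC1), RRM2B, the p53-induced reductase subunit (6.39 in HT55 through 7.76 to 9.59 in MDST8), and LIG3, the ligase of repair (4.73 in CAR1 through 6.14 to 7.87 in OUMS23). Their correlations were 0.36, 0.44 and 0.41.

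Regulators of S phase and genes of mitosis were read alongside. The median of 12 E2F and S phase cyclin genes gave 0.82 with the position of the members, and the median of 16 mitotic genes gave 0.80, or 0.87 without the 2 farthest lines. CCNE1, or cyclin E1, which drives entry into S phase, gave 0.72 and ran from 5.08 in HT55 through 6.18 to 8.57 in HUTU80. E2F7 (0.25, from 2.81 in OUMS23 to 10.56 in MDST8) and E2F8 (-0.26, from 4.27 in COLO320HSR to 8.40 in SW948), atypical E2F repressors, and MYBL2, a target of E2F (0.09, from 6.08 in MDST8 to 9.77 in OUMS23), did not follow the position closely. The lowest values of E2F7 and E2F8 lay under the background level of 4.47, and their rank correlations were 0.48 and -0.13. Among kinases of mitosis AURKB gave 0.74, PLK1 0.63 and TTK 0.41, but AURKA gave -0.10.

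MKI67, which encodes the Ki-67 antigen used to count cycling cells, gave -0.16. It read 10.18 in HT55 and 9.91 in CL40, the 2 lowest lines on the replication genes, against 9.99 in HCT116 and 9.25 in COLO320HSR at the top, and was lowest in LS180 (7.93) and NCIH716 (7.99). In HT55 the median deviation of the mitotic genes was 0.05 while that of the replication genes was -0.57. In CL40 the mitotic median was -0.41 and in SNUC1 -0.49, close to their replication medians of -0.49 and -0.41.

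**Figure D5:**
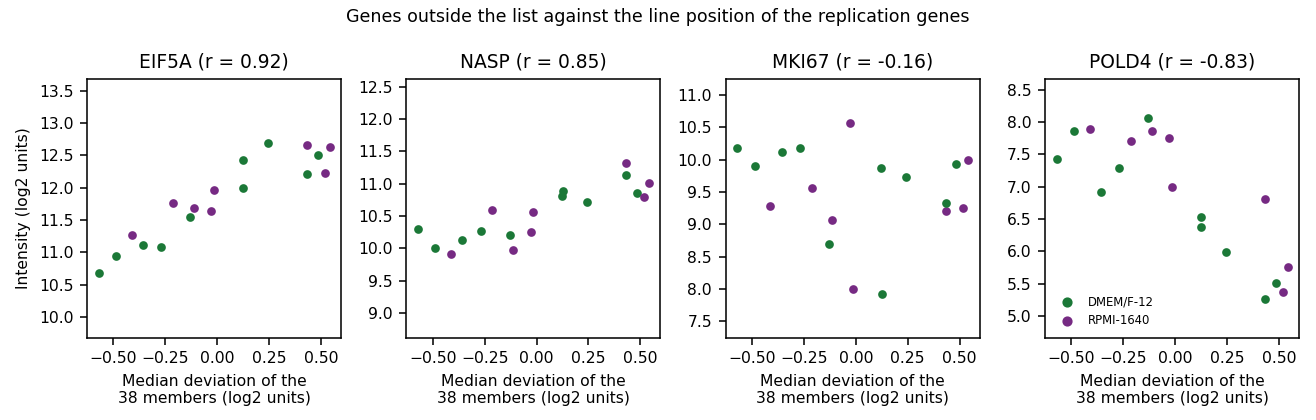
Level of EIF5A, NASP, MKI67 and POLD4 (vertical axes, log2 intensity) against the median deviation of the 38 replication genes (horizontal axes, log2 units) in 18 lines coloured by medium. EIF5A (r = 0.92) and NASP (0.85) are higher in lines of higher position, POLD4 (-0.83) is lower there, and MKI67 (-0.16) shows no clear slope.

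Among 3601 other genes above background in every line with an SD of at least 0.5, the closest to the position of the members were EIF5A (0.92), NUP93 (0.88), WDR76 (0.88), CCDC117 (0.87), EXO1 (0.86), PPAT (0.86), UBFD1 (0.86), LYAR (0.85), GATB (0.85) and CCDC124 (0.85). EIF5A, a translation factor, ran from 10.68 in HT55 through 11.87 to 12.68 in RKO. EXO1, a nuclease of mismatch repair, ran from 6.11 in CL40 through 7.56 to 8.91 in COLO320HSR, and PPAT, which starts purine synthesis, from 7.43 in SNUC1 through 8.70 to 9.80 in COLO320HSR. The most opposite were NHLRC3 (-0.85), ERCC5 (-0.85), TSPAN31 (-0.84), TAOK3 (-0.83) and CREBL2 (-0.83). ERCC5, a nuclease of nucleotide excision repair, ran from 6.75 in HCT116 through 8.38 to 9.64 in LS513. Without the 2 lines farthest from the median the 10 closest gave 0.80 to 0.90 and the 5 most opposite -0.77 to -0.83. In this pool 17.0% of genes reached 0.5 and 9.25% were at or under -0.5, so these are the ends of a broad distribution over 18 lines.

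Markers of cell type were read beside the position. Of 10 epithelial markers all were above background in at least 1 line and none in all 18, and their median level fell into separate clusters of lines, so no correlation over the panel is given. It was 12.07 in HT55, 12.32 in CL40 and 12.19 in SNUC1, the 3 lowest lines on the replication genes. It was 7.89 in SW48, 3.81 in COLO320HSR and 7.07 in HCT116, the 3 highest. It lay under the background level in COLO320HSR, HUTU80 (4.03), RKO (3.61) and MDST8 (3.60), while KM12, another high line, stood at 10.27. The median hides single markers: CDX2 had its highest value of the panel, 11.44, in COLO320HSR. CAR1, a low line at a position of -0.36, stood at 7.19, and the position of MDST8 was -0.11, below 0. The log2 of the summed intensity of these markers ran from 8.54 in HUTU80 to 15.61 in CL40. Of 9 leukocyte markers only PTPRC (6.68 in SW48) and of 6 endothelial markers only CDH5 (5.87 in OUMS23) exceeded background in any line. Of 7 fibroblast markers 6 did so, led by LUM (11.30) and DCN (11.27) in HUTU80 and COL3A1 (10.57) in NCIH716. The part of epithelial state in the replication gene values was not tested.

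The medium was the only grouping in the labels, and a line grew in 1 medium, so medium and line cannot be told apart. Positions ranged from -0.57 to 0.48 in DMEM/F-12 (median -0.00361, n = 10) and from -0.41 to 0.54 in RPMI-1640 (median -0.02, n = 8), and the groups overlapped almost wholly. With limma and Benjamini-Hochberg adjustment over 13587 genes, 0 of 38 members and 0 of all genes (0%) passed. At an unadjusted p under 0.05, 0 of 38 members and 343 of all genes (2.52%) were found. The mean was higher in RPMI-1640 for 25 of 38 members and for 50.6% of all genes, with a median difference of 0.08 against 0.00351 over all genes. On leaving out 1 line, the count of members ran from 20 without COLO320HSR to 31 without SNUC1. The members varied together, so they are not independent of each other in this count. The members with the smallest p were RFC3 (10.02 ± 0.37 SD against 10.36 ± 0.51 in RPMI-1640), PRIM1 (9.03 ± 0.45 and 9.36 ± 0.43) and RFC5 (8.95 ± 0.28 and 9.24 ± 0.68), all higher in RPMI-1640. Their differences were 0.34 (SE 0.20), 0.33 (SE 0.21) and 0.30 (SE 0.23), with a limma adjusted p of 0.999 each. In the other direction MCM6 differed by -0.14 (SE 0.14), CHAF1B by -0.25 (SE 0.31) and PRIM2 by -0.14 (SE 0.23), also with a limma adjusted p of 0.999. Of the other replication genes 0 of 42 were called and 1 had an unadjusted p under 0.05 by limma. Of the 12 S phase and 16 mitotic genes 0 were called and 0 had such an unadjusted p.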

How the data were processed

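The authors deposited 1 table of log2 intensities, computed with RMA (affy), per the submitters' processing notes, with versions not given in the sources used here. The values ran from 2.31 to 13.71 with array medians of 3.65 to 3.69, and were used without further normalization. RMA fits all arrays together and compresses differences of dim probe sets. Of 54613 probe sets, 40914 were annotated to 1 gene, 864 to several and 12835 to none. Genes were named from the platform annotation, updated through 40858 Entrez matches to RefSeq GRCh38.p14, which also gave promoters and gene order. The brightest probe set on average stood for each of 19774 genes. The background level used 77 probe sets of 47 measured genes (of 56 listed).

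Members were listed for this work, and members, lists and thresholds were chosen with earlier results of these data known. Media were compared with limma 3.58.1 (trend, two-sided) in R 4.3.3. Only 18 arrays, with no replicate of a line, limit the precision. Genes were named by rule: all members by range, with every line for the 6 of largest SD and the 4 most and 4 least like the set, all pairs out of step, a fixed number by SD or likeness from the other lists, and 3 members a direction by p for the media. Any other gene was picked with its values in view. Alternatives covered other probe set rules, quantile normalization, array medians, thresholds, filters, limma settings and leaving out each line. Scripts were tested on simulated data.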

Additional observations from a re-analysis of the deposited data

Results flagged for a closer look

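Within each medium, the highest and lowest line of each member and of the summary position were examined for a gap to the rest, in 78 groups, and chance flags about 1 in 20 groups. In 2 of the 78 a line stood out. MCM3, a subunit of the helicase ring, read 8.90 in MDST8 while the other lines in RPMI-1640 read 9.75 to 10.50. RFC3, a subunit of the clamp loader, read 9.19 in MDST8 while the others read 10.22 to 10.79. Both values belong to the line in which MCM2 was out of step, and their cause was not tested.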

How the results depend on the processing

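The mean pairwise correlation of the members moved by less than its jackknife error under 23 of 23 alternatives. That error was computed from the runs without 1 line, so those runs could hardly exceed it. Under the other settings the correlation ran from 0.39 with quantile normalization to 0.43 with the mean of all probe sets. Line positions have no replicate error. In 233 of 234 cases they moved by less than 0.17 log2 units, the median SD between the 2 brightest probe sets of a member, and MDST8 moved from -0.11 to -0.30 without the nucleotide supply genes. Lines near 0 still moved by over 1.5 times: LS180 (0.13) ran from 0.01 to 0.17, SW948 (-0.13) from -0.29 to -0.06, OUMS23 (0.12) from 0.06 to 0.16, RCM1 (-0.03) from -0.08 to -0.02, and NCIH716 (-0.02) changed sign, to 0.02 with array medians subtracted. The number of pairs out of step was 22 at a limit of 1 log2 unit and 1 at 2 log2 units, and ran from 1 to 4 on leaving out a line, with 1 without KM12, RCM1 or MDST8. GINS4 in MDST8 fell short of the limit under 10 of 21 alternatives (0.61 with the mean of all probe sets), and ORC1 in RCM1 under 2 of 21 (-1.494 without KM12, -1.496 without HT55). RRM2 in COLO320HSR passed it under 2 of 21, and GINS4 in CL40 under 3 of 21 (to -1.55). The correlation with the set moved beyond its error in 4 of 152 cases, for RFC3 and MCM6 under other probe set rules, by construction a change of probe set. No gene was called between media under any of 26 alternatives run with limma, with 259 to 648 genes at an unadjusted p under 0.05. No paired analysis was possible because each line grew in 1 medium only. Signal near background limits GINS4 in CL40 (4.83), ORC1 in RCM1 (4.99) and POLE in MDST8 (5.03).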
